A study of Mus musculus with 24 samples.

Results

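The comparison described here sets activated muscle stem cells taken 72 h after muscle injury against activated cells taken 36 h after injury. It was made on the 12 arrays titled for these time points, 6 for each, out of 24 arrays in the series. The labels describe the donors as male C57BL/6 mice of 8 weeks, and both groups are called activated stem cells. The labels name neither a cell sort nor the way the muscle was injured, and no group carries a transgene or a drug. Total RNA was read on TaqMan rodent microRNA cards, which are real-time PCR plates with a primer and probe set (an assay) for each microRNA (miRNA). Each of the 3 replicates of a time point was run on a card of type A (375 miRNA assays) and a card of type B (209 assays). The design text calls the replicates technical, so every p-value below measures the spread between runs and not between mice. No 2 replicate arrays held identical values.

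A miRNA is a short RNA that lowers the output of messenger RNAs whose 3' ends pair with its seed, bases 2 to 8 of the mature strand. Muscle stem cells lie quiescent beside the muscle fibre, enter the cell cycle after injury, and then either differentiate into new muscle or return to quiescence. Muscle-enriched miRNAs such as miR-206 and the miR-133 pair are known for rising with muscle differentiation, and miR-489, from an intron of the calcitonin receptor gene Calcr, is known for holding muscle stem cells quiescent.

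Each array file gives a threshold cycle (Ct), the number of PCR cycles needed to reach a set brightness, so that 1 cycle less stands for about 2-fold more RNA. The level used below is the mean Ct of U6, a small nuclear RNA measured on every array, minus the Ct of the assay. It is a log2 scale on which a higher value means more miRNA relative to U6. Runs had 40 cycles. Detection required a Ct below 35 in every spot of the assay on that array, and undetected values were left out. Differences are the level at 72 h minus the level at 36 h.

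The mature sequences below, 5' to 3' with the seed in capitals, belong to the miRNAs on which the results turn. They come from RefSeq on mouse build GRCm38.p6, in which 20 of the 21 assays looked up were found; miR-150 was not matched. The first set holds miRNAs that were higher at 72 h.
miR-206: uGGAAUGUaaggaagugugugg
miR-31: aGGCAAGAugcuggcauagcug
miR-31*: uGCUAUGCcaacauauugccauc
miR-182: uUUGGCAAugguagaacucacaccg
miR-183: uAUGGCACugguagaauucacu
miR-335-3p: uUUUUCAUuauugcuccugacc

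The second set is shown because its members share a seed, or all but the last base of it, and yet lay at both ends of the range of differences.
miR-503: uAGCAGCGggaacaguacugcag
miR-322: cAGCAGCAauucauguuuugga
miR-15b: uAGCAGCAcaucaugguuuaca
miR-16: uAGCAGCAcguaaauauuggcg
miR-497: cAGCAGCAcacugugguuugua
miR-195: uAGCAGCAcagaaauauuggc

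The third set holds miRNAs among the largest decreases, and miR-126-3p as the marker of endothelial cells.
miR-489: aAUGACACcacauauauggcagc
miR-136: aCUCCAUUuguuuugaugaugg
miR-146b: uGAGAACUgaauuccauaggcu
miR-204: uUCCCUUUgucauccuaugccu
miR-126-3p: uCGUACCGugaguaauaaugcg

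At 72 h most miRNAs lay lower than at 36 h, and a small set that includes the muscle-enriched miRNAs miR-206 and miR-133b lay higher. Of 584 miRNA assays, 270 could be tested, and 198 of them (73.3%) were called changed at an adjusted p below 0.05 (limma, Benjamini-Hochberg) and at least 2-fold. 11 assays (4.07%) were called higher at 72 h and 187 (69.3%) lower. Of the 198, 189 were detected on all 6 arrays and 9 were missed on at least 1, and in none did the detected arrays of the 2 times overlap. A call needs a 2-fold difference beyond the spread of the replicates, so overlap among called assays was unlikely from the outset. The median difference over the tested assays was -1.82, with a median standard error of 0.129 per assay. Fewer assays also gave a signal: 314 were detected in 3 of 3 replicates at 36 h and 264 at 72 h. In 47 assays the signal was confined to 36 h and in 6 to 72 h, meaning 3 of 3 replicates of one time and at most 1 of the other.

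**Figure D1:**
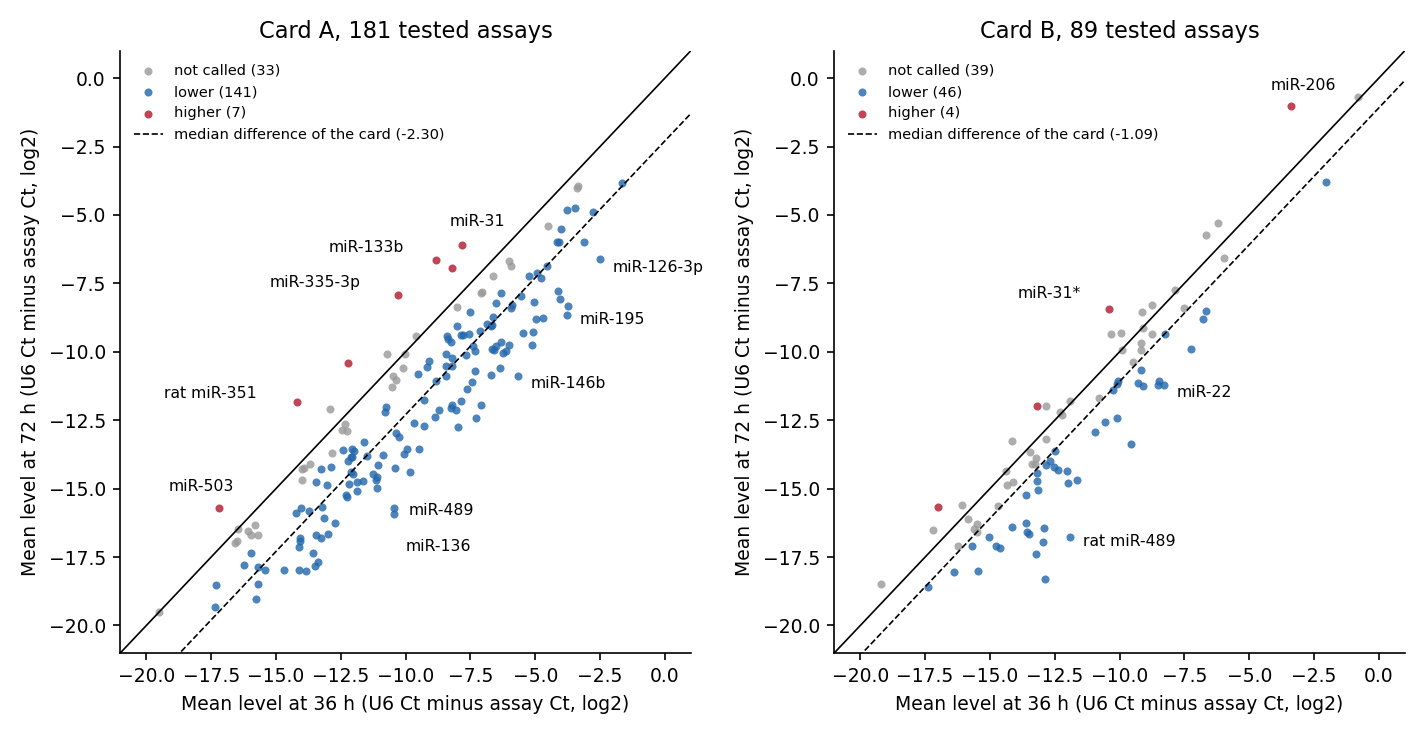
Mean level at 36 h (x axis) against mean level at 72 h (y axis), both as U6 Ct minus assay Ct on a log2 scale, for the tested assays of card A and card B, n = 3 arrays per time; the solid line marks equal levels and the dashed line the median difference of the card. Most points lie below the solid line, and 7 assays of card A and 4 of card B were called higher.

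How many miRNAs were lower depended on the RNA used as reference. The control RNAs themselves differed in Ct between the times, all of them crossing the threshold later at 72 h. U6 was later by 0.23 cycles on card A and by 0.89 on card B, snoRNA135 by 0.88 and 0.89, Y1 by 1.21 and 1.20, U87 by 1.58 and 1.58, and snoRNA202 by 2.40 and 2.39. Every control but U6 and snoRNA429, which is on card B only, thus moved alike on both cards, while U6 differed between them, and the median difference was -2.30 on card A and -1.09 on card B. With snoRNA202 as the reference the calls divided evenly, 70 higher and 70 lower, and the median was 0.077. With the mean of the always detected miRNAs as the reference they were 76 higher and 68 lower. With snoRNA135 they were 13 and 161, and with Y1 20 and 142. All 11 assays called higher against U6 were called higher with each of the 5 references, and 62 of the 187 lower assays were called lower with each. The agreement for the 11 was nearly fixed in advance. Every other reference was later at 72 h by at least as much as U6 on each card. It could thus only raise the differences of assays detected on all 6 arrays, as the 11 were. Here and below, the other references thus put only the decreases to a test. On card B snoRNA135 and U6 were both later by 0.89 cycles, so snoRNA135 tested little there. All 11 increases had a lower raw Ct at 72 h, as had 5 of the 72 assays that were not called and none of the 187 lower ones. For the called assays this follows from the 2-fold threshold and the U6 shifts of 0.23 and 0.89 cycles. It is therefore no separate support for the calls. In what follows a decrease is named as holding with 5 references only where it was called with each. Which control RNA held constant between the times was not tested.

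**Figure D2:**
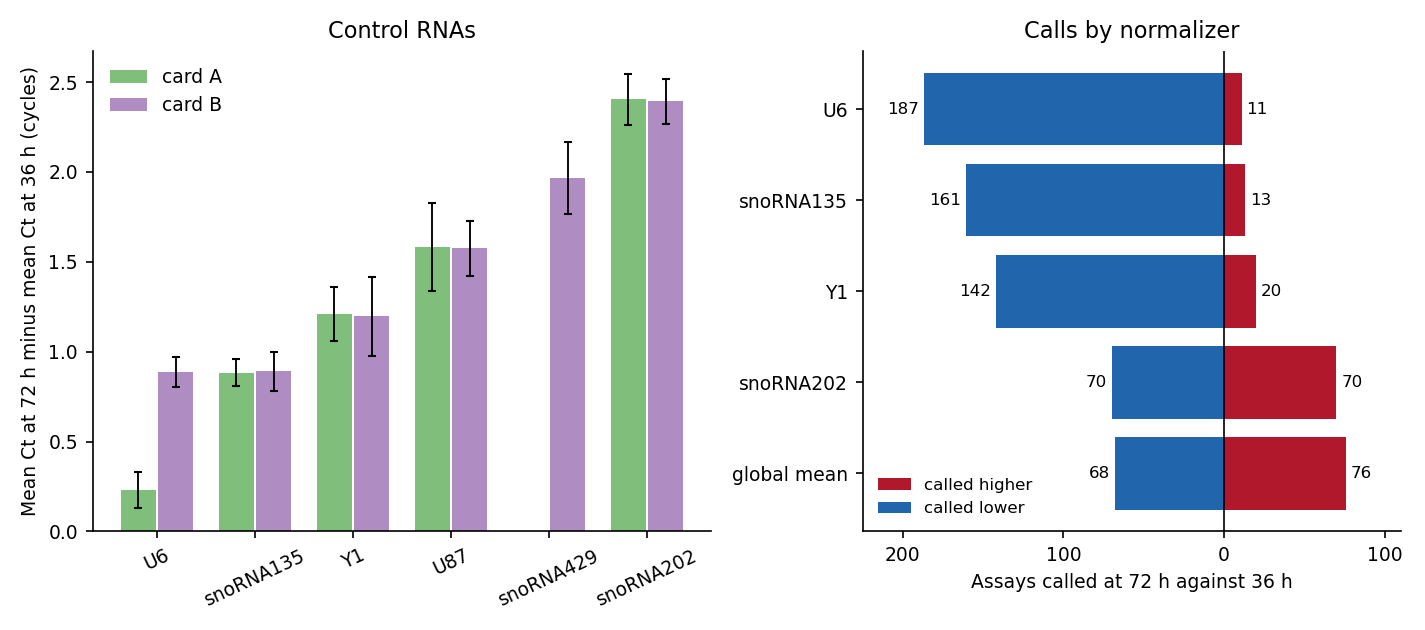
Left, mean Ct at 72 h minus mean Ct at 36 h of 6 control RNAs on card A and card B, with error bars from the SDs of both groups (root of the summed squares, n = 3 arrays each; snoRNA429 is on card B only). Right, number of assays called higher (right of 0) or lower (left of 0) at 72 h with each of the 5 references, from 11 and 187 with U6 to 76 and 68 with the mean of the always detected miRNAs.

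The muscle-enriched miRNAs were the list with the most increases. miR-206, miR-133b and miR-133a rose between 36 h and 72 h, and the rise was called with each of the 5 references. Of the 8 assays of the list, 5 could be tested, 3 were called higher and none lower, with a median of 1.27, against 4.07% called higher and a median of -1.82 over all tested assays. miR-208, miR-208b and miR-499, known from heart and slow muscle, were detected on no array of either time.

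miR-206, which is made almost only in skeletal muscle, stood at -3.43, -3.32 and -3.37 on the 3 arrays at 36 h and at -0.99, -1.03 and -1.07 at 72 h. All 3 arrays at 72 h were above all 3 at 36 h, by far more than the spread within either time. The difference was 2.34 ± 0.11 (SE, n = 3 arrays per time), a 5.07-fold increase with an adjusted p of 1.85e-09 in limma. Its gene, Mir206, lies at chr1:20679055-20679076 (mature strand, GRCm38.p6) within the long noncoding RNA gene Lincmd1, and the hairpin of Mir133b lies 3686 bases from its own. miR-133b, from that neighbouring hairpin, stood at -8.83, -8.84 and -8.76 at 36 h and at -6.58, -6.58 and -6.82 at 72 h. These groups did not overlap either, and the increase was 4.44-fold (2.15 ± 0.11, adjusted p 9.31e-09, limma). miR-133a, which is transcribed with miR-1 from other loci, went from -8.26, -8.22 and -8.21 to -6.87, -6.97 and -7.02, a smaller rise of 2.42-fold.

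The 2 assays for miR-1, the other widely studied muscle miRNA, were not called against U6 and differed in sign. The mouse assay gave -12.54, -12.41 and -12.38 at 36 h and -12.91, -12.88 and -12.78 at 72 h, a difference of -0.41 with an adjusted p of 0.12 (limma), which was above 0 with each of the other 4 references. These groups did not overlap. The fit behind the p-value also takes in the wider spread at 0 h (-15.17, -15.09 and -15.99) and 60 h (-14.00, -13.82 and -13.33). The rat assay gave -10.68, -10.80 and -10.65 against -10.03, -10.09 and -10.13, a difference of 0.62, which is under 2-fold. With snoRNA202 and with the miRNA mean both assays were called higher, so that all 5 tested assays of the list were, and the rat assay was also called higher with snoRNA135 and Y1.

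Outside that list, 8 more assays were called higher, and each was so with all 5 references. miR-335-3p, from an intron of the imprinted gene Mest (chr6:30741354-30741375), had the largest increase of the tested assays relative to U6. It stood at -10.49, -10.15 and -10.20 at 36 h and at -8.10, -7.79 and -7.90 at 72 h, a 5.11-fold difference. The other strand of the same hairpin, miR-335-5p, differed by only 0.17 ± 0.10 (adjusted p 0.13, limma), and its groups overlapped. With snoRNA202 (2.34), Y1 (1.14) and the miRNA mean (2.49) it was called higher too. The difference between these 2 changes was not tested.

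miR-31 is known for restraining translation of the myogenic factor Myf5 in quiescent muscle stem cells. Both strands of its hairpin (chr4:88910577-88910635) rose. In the quiescent cells at 0 h the main strand stood lower, at -14.89, -15.13 and -15.31. It stood at -7.80, -7.83 and -7.85 at 36 h and at -6.13, -6.02 and -6.16 at 72 h. From 36 h to 72 h this is a 3.30-fold increase (1.72 ± 0.09, adjusted p 1.74e-08, limma) with no overlap between these times. miR-31*, measured on the other card, went from -10.46, -10.21 and -10.49 to -8.28, -8.51 and -8.47, a 3.92-fold increase.

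miR-182 forms a cluster with miR-183 and miR-96, known from sensory organs and from tumours. Its levels were -12.30, -12.02 and -12.31 at 36 h and -10.38, -10.25 and -10.59 at 72 h, a rise of 3.48-fold, with a wider standard error (1.80 ± 0.44, adjusted p 3.09e-03, limma) than the others. miR-183, whose hairpin lies 3675 bases from that of miR-182 in the host gene Mirc35hg, gave no Ct on any 36 h array and was detected on all 3 at 72 h, at -16.20, -16.55 and -15.83. Set against a Ct of 35 at 36 h, that is at least 15.2-fold higher. miR-96, the middle member, was detected on no array of either time.

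The remaining increases were low or came from rat assays. rno-miR-351 rose 5.07-fold, from -14.03, -14.13 and -14.39 to -11.80, -11.97 and -11.74; the mouse assay of the same name was detected on no array of either time. Both miR-351 and miR-503, described next, belong to a cluster of miRNAs on the X chromosome. rno-miR-463 rose 2.52-fold and lay near the detection limit at both times, at Ct 31.9, 31.4 and 31.9 at 36 h and 31.4, 31.5 and 30.9 at 72 h. miR-141*, the lesser strand of an epithelial miRNA whose main strand was detected on no array here, rose 2.29-fold, from -13.16, -13.15 and -13.20 to -11.87, -12.08 and -11.97.

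**Figure D3:**
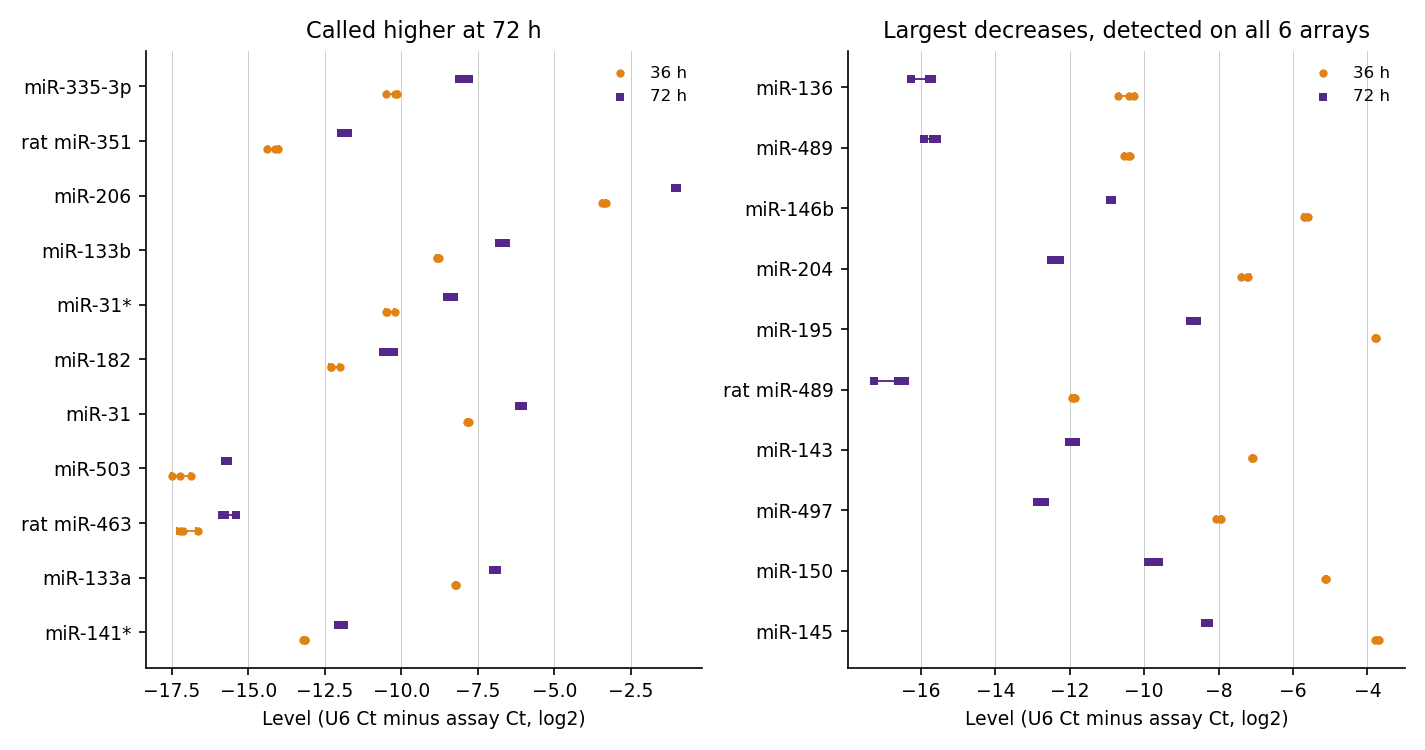
Level (U6 Ct minus assay Ct, log2) on each of the 3 arrays at 36 h (circles) and at 72 h (squares), with the SD as a bar, for the 11 assays called higher (left) and the 10 largest decreases among assays detected on all 6 arrays (right). In none of the 21 rows do the 2 times overlap, which was a condition for choosing the 10 decreases. These decreases span 24.3-fold to 43.9-fold.

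The miR-15/16 family split more widely than any other family list. Its members pair with targets through a shared seed and are known for restraining cyclins and other cell cycle genes. Of 7 assays, 6 were tested, 1 was called higher and 4 lower. miR-195 and miR-497 fell with each of the 5 references, while miR-503 rose with each.

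miR-195 stood at -3.79, -3.77 and -3.78 at 36 h and at -8.78, -8.63 and -8.59 at 72 h, 29.6-fold lower (-4.89 ± 0.06, adjusted p 1.64e-13, limma). miR-497, whose hairpin lies 241 bases away on chromosome 11, fell alike, from -8.08, -7.95 and -7.94 to -12.72, -12.88 and -12.67, which is 27.2-fold. These 2 miRNAs carry the seed AGCAGCA, as do miR-15b, miR-16 and miR-322 in the sequences above.

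miR-16 was 4.36-fold lower relative to U6, at -2.80, -2.75 and -2.74 against -4.85, -4.82 and -4.99. Its difference of -2.12 was close to the card median and became 0.046 with snoRNA202 and 0.20 with the miRNA mean. miR-15b, its neighbour in the gene Smc4, was 2.09-fold lower relative to U6, and was called higher with the same 2 references. miR-503, whose seed AGCAGCG differs from the others in the last base, went the other way. It rose 2.82-fold (1.5 ± 0.21, adjusted p 1.71e-04, limma), from -16.88, -17.50 and -17.23 to -15.65, -15.72 and -15.76, all low signals near Ct 31 and 32. miR-322, whose hairpin lies 200 bases from that of miR-503 in the same host gene, C430049B03Rik, differed by -0.68 ± 0.28 and was not called. With 3 of the other references this difference was above 0, and with snoRNA202 and the miRNA mean it was called higher.

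6 assays were detected at 72 h alone and have no test. Besides miR-183 they include miR-675-3p, which is processed from the imprinted RNA H19. It gave no Ct below 35 at 36 h and stood at -16.29, -15.41 and -15.94 at 72 h, at least 18.9-fold higher. Its other strand, miR-675-5p, was detected on no array of either time. miR-298 was at least 12.4-fold higher and the neural marker miR-129-3p at least 6.92-fold. miR-501-3p and miR-107 had 1 array with a signal at 36 h and so have no bound. Against that array's spot, their 72 h means were 4.70-fold and 1.44-fold higher.

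miR-489 had the second largest decrease relative to U6 among assays detected on all 6 arrays. It stood at -10.55, -10.42 and -10.39 at 36 h and at -15.58, -15.91 and -15.68 at 72 h, with no overlap, which is 38.5-fold lower (-5.26 ± 0.16, adjusted p 1.70e-10, limma). The rat assay, on the other card, gave -11.92, -11.85 and -11.95 against -17.27, -16.61 and -16.45, or 29.2-fold lower. Both decreases were called with all 5 references, and with the miRNA mean as the reference they were still -2.94 and -3.73. miR-489 lies at chr6:3721922-3721944 on the minus strand within Calcr. miR-653, from the same locus, was detected on all 3 arrays at 36 h, at -15.03, -14.96 and -14.65, and on none at 72 h, where 1 of its spots had a Ct of 34.9. This locus was the subject of published work on these samples, so its decrease is not independent evidence.

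miR-136 had the largest decrease of the tested assays relative to U6, from -10.69, -10.41 and -10.29 to -15.78, -16.26 and -15.72, a 43.9-fold decrease (-5.46 ± 0.20, adjusted p 9.81e-10, limma) that was called with all 5 references. It lies at chr12:109595331-109595352, within Rtl1, in the imprinted Dlk1-Dio3 region, one of the largest miRNA clusters of the mouse genome, expressed from the maternal chromosome. All tested assays of the lists for this region were called lower relative to U6, beside 69.3% over all tested assays (median -1.82). Near Rtl1 and Meg3, 6 of 17 assays were tested and all 6 were called lower, with a median of -3.77; with each of 3 other references all 6 were again called lower, and with the miRNA mean 4 were. 3 more were detected at 36 h alone, 6 were detected on no array, and the other 2 on fewer arrays than a test needs. Of the other 2, miR-493 went the other way. It was detected on no array at 36 h and on 2 at 72 h, at -18.14 and -19.00.

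In the distal part of the region, 15 of 39 assays were tested and all 15 were lower relative to U6, with a median of -3.23. Over all tested assays 69.3% were called lower. With snoRNA202 8 of them were called lower, with Y1 13, with the miRNA mean 7, and none was called higher with any reference. 4 more were detected at 36 h alone, and 19 on no array. miR-411 had the largest difference, from -6.34, -6.31 and -6.40 to -10.68, -10.42 and -10.68, 18.9-fold lower. miR-376c was 15.5-fold lower, miR-543 14.6-fold and miR-380-5p 13.6-fold. Nearer Rtl1, miR-434-3p was 16.6-fold lower, miR-337-5p 14.7-fold and miR-337-3p 12.7-fold. All 7 were called lower with all 5 references.

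Further large decreases were those of miR-592, miR-146b, miR-204 and miR-224, which belong to no list. miR-592 was detected on only 2 arrays at 72 h. It stood at -13.12, -12.67 and -12.86 at 36 h and at -18.24 and -18.35 at 72 h, the latter near Ct 33.9, which is 42.5-fold lower (-5.41 ± 0.24, adjusted p 1.04e-07, limma). This lies between miR-136 and miR-489, and with each of the other 4 references the decrease of miR-592 was larger than that of miR-136. miR-592 was read on card B, and miR-136 and the mouse assay of miR-489 on card A. U6 moved by 0.89 cycles on card B and by 0.23 on card A, so their order depends on the reference. miR-146b, induced by inflammatory signalling through NF-kB and known for dampening it, stood at -5.72, -5.60 and -5.69 at 36 h and at -10.91, -10.85 and -10.89 at 72 h. This is a 37.2-fold decrease with some of the tightest replicates of the comparison (-5.22 ± 0.05, adjusted p 1.34e-13, limma). miR-204, from an intron of Trpm3, fell 35-fold, from -7.23, -7.20 and -7.39 to -12.26, -12.45 and -12.50. miR-224 was 23.6-fold lower by its mouse assay but 3.42-fold by its rat assay. The mouse decrease held with all 5 references, whereas the rat difference turned to 0.40 with snoRNA202 and to 0.55 with the miRNA mean.

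The let-7 family and most of the clusters of miR-23, miR-24 and miR-27 were lower relative to U6 by amounts close to the median of their card (-2.30), and their calls depend on the reference. In the let-7 family, known for promoting differentiation, all 6 tested members were called lower relative to U6, from -2.66 for let-7g to -2.12, with a median of -2.39, yet with snoRNA202 or the miRNA mean none was called in either direction. let-7b, let-7c, let-7g and let-7i were below 0 with all 5 references. let-7d and let-7e, with smaller decreases, were not. let-7d lay above 0 with snoRNA202, and both lay above 0 with the miRNA mean. Relative to U6, let-7c stood at -4.92, -4.68 and -4.71 at 36 h and at -7.33, -7.28 and -7.32 at 72 h, 5.80-fold lower with no overlap. let-7b was 5.32-fold lower and let-7i 5.15-fold. miR-27b, known for repressing Pax3 in muscle progenitors, was 5.36-fold lower relative to U6, at -7.76, -7.63 and -7.67 against -9.93, -10.04 and -10.36. In its list all 4 tested assays were called lower against U6, but of miR-23b, miR-24, miR-27a and miR-27b only miR-23b (12.6-fold) was so with all 5 references. miR-21, widely induced in activated and growing cells, was 4.36-fold lower relative to U6 and changed sign with snoRNA202 (0.047) and with the miRNA mean (0.20).

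Families with larger decreases kept some or all of their calls. Both miR-26 members, which repress the chromatin regulator Ezh2, were called with all 5 references: miR-26a stood at -4.02, -4.05 and -4.06 at 36 h and at -8.08, -8.05 and -8.09 at 72 h, 16.3-fold lower, and miR-26b was 14.3-fold lower. Both tested miR-181 members were also called with all 5, miR-181a at 17.0-fold and miR-181c at 17.9-fold lower. In the miR-30 family all 5 members were lower relative to U6 with a median of -3.36, and 3 (miR-30a, miR-30d and miR-30e) were so with all 5 references. miR-30c was not, and its difference with the miRNA mean was 0.021. In the miR-29 family, which targets collagens and other matrix genes, all 3 were lower relative to U6 and miR-29c with all 5 references. miR-99a, miR-100 and miR-125b-5p fell 14-fold, 13.4-fold and 12.9-fold with all 5 references. The other 4 assays of their list were lower relative to U6 by smaller amounts, miR-125b-3p by 3.16-fold, and with the miRNA mean 2 of the list were called higher.

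The cluster from miR-17 to miR-92a and its paralogs, known for supporting proliferation, showed small differences relative to U6. Their 11 tested assays ranged from -1.26 to -0.06 with a median of -0.89, and 4 were called lower: miR-19b (2.40-fold), miR-25 (2.35-fold), miR-92a (2.08-fold) and miR-106b (2.05-fold). Without the third replicate at 72 h, miR-92a (-0.98) and miR-106b (-0.97) fell short of 2-fold. With snoRNA202 as the reference 9 of the 11 were called higher and none lower, with the miRNA mean all 11 were called higher, and with snoRNA135 or Y1 none was called. Over all 270 tested assays, 69.3% were called lower against U6, and 70 were called higher with snoRNA202 and 76 with the miRNA mean. Every one of the 11 lay above the median of its card. miR-19b is shown as the example: -3.52, -3.45 and -3.46 at 36 h, -4.74, -4.70 and -4.79 at 72 h, and a higher mean of -2.89 at 60 h than at either.

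Several calls in smaller families also depended on the reference. miR-221 and miR-222, known for repressing the cell cycle inhibitor p27, were 2.60-fold and 2.90-fold lower relative to U6, were called with no other reference, and were above 0 with snoRNA202 and the miRNA mean. Of the 4 assays of the miR-130 and miR-301 family only miR-130a was called against U6 (4.13-fold lower), and its difference was 0.12 with snoRNA202 and 0.28 with the miRNA mean. miR-130b, miR-301a and miR-301b differed by -0.31, -0.76 and -0.46, and all 3 were called higher with snoRNA202 and with the miRNA mean. In the family of miR-148 and miR-152, miR-152 fell 12.9-fold with all 5 references, miR-148a was 7.17-fold lower relative to U6, and miR-148b differed by -0.50 with overlapping groups but was called higher with snoRNA202 (1.67) and the miRNA mean (1.83). In the family of miR-34, a known set of p53 targets, and miR-449, miR-34a was 8.44-fold lower relative to U6 on 2 detected arrays at 72 h, the third having no Ct, and miR-34b-3p was 2.60-fold lower, or above 0 with snoRNA202 and the miRNA mean. miR-34c (-0.73) and miR-449a (-0.42) were not called against U6. Both were called higher with snoRNA202 (1.44 and 1.75) and with the miRNA mean (1.59 and 1.90).

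**Figure D4:**
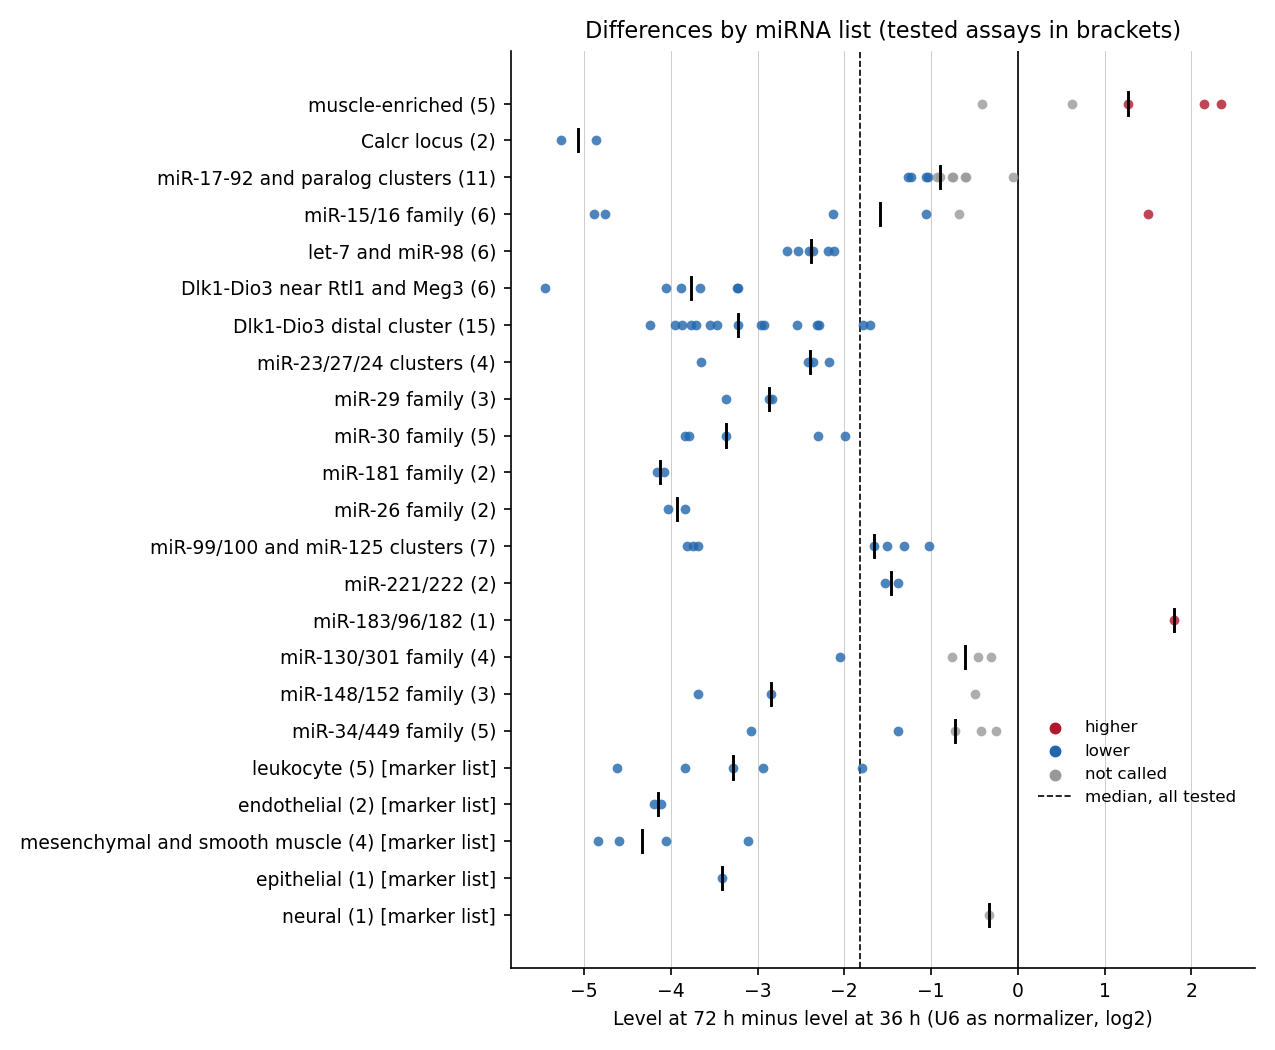
Level at 72 h minus level at 36 h (log2, U6 as reference) for the tested assays of each miRNA list, 1 point per assay coloured by call, with a black bar at the median of the list. The solid line marks no difference and the dashed line the median of all tested assays (-1.82); the muscle-enriched list is centred at 1.27 and the Calcr locus at -5.07. With snoRNA202 or the miRNA mean as reference the points shift to the right, and none of the 6 let-7 assays is called.

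47 assays were detected at 36 h alone. For 24 of them some spot at 72 h still had a Ct below 35, and for 23 none had. The 5 with the largest differences were miR-10b, miR-382, let-7a, let-7f and miR-15a. miR-10b, from the Hox gene clusters, stood at Ct 23.0, 23.0 and 23.1 at 36 h, and at 72 h 2 arrays gave no Ct and 1 gave 33.6. let-7a stood at levels of -10.09, -9.69 and -9.96 at 36 h and had no Ct at 72 h, which gives at least 1002-fold, and let-7f, with Ct 26.1, 26.2 and 26.3 at 36 h, at least 388-fold.

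Those bounds rest on missing values that were not always reproducible within a time. let-7a also had no Ct on 2 of 3 arrays at 0 h and a level of -11.47 on the other, and was detected on no array at 60 h. let-7f had no Ct at 0 h or 60 h. miR-15a gave no Ct on 2 arrays at 72 h and a Ct of 30.9 on the third, and miR-382 no Ct on 2 and 31.1 on the third. Altogether 7 assays at 72 h and 6 at 36 h had a Ct below 32 on one array and none on another of the same time. By comparison let-7b, let-7c, let-7g and let-7i, measured on all 6 arrays, were 5.15-fold to 6.32-fold lower relative to U6.

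Markers of other cell types were also lower at 72 h, and the values are given here because they move with the other decreases. In these bulk samples fewer cells of a type and less RNA per cell cannot be told apart. Leukocyte miRNAs were called lower in 5 of 5 tested assays, endothelial in 2 of 2 and mesenchymal and smooth muscle in 4 of 4, with medians of -3.28, -4.15 and -4.33. Over all tested assays 69.3% were called lower, with a median of -1.82, so lists this short could be all lower without being special. Called with all 5 references were 2, 2 and 3 of them, beside 62 of all 270 tested assays. The fifth mesenchymal assay, miR-199a-5p, had no test: it was detected on no array at 36 h and on 2 at 72 h, at -18.55 and -17.79. None of the tested markers of these 3 lists was called higher with any reference, although miR-155 differed by 0.38 and 0.53, uncalled, with snoRNA202 and the miRNA mean.

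miR-223, of neutrophils and monocytes, stood at -5.02, -5.00 and -4.91 at 36 h and at -8.76, -8.75 and -8.93 at 72 h, 14.3-fold lower. miR-150, of mature lymphocytes, was 24.6-fold lower, at -5.15, -5.11 and -5.11 against -9.61, -9.71 and -9.91. miR-146a was 9.73-fold lower and miR-142-3p, found throughout blood cells, 7.66-fold, both relative to U6. The summed level of the 5 assays (log2 of the sum of their linear levels) ran from -3.72 to -3.65 at 36 h and from -7.42 to -7.28 at 72 h. miR-142-5p was detected at 36 h alone. miR-451, of red blood cells, was detected on all 3 arrays at 36 h, at -14.07, -12.99 and -13.76, and on 1 at 72 h with a Ct of 34.9.

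The endothelial strand miR-126-3p, from an intron of Egfl7 (chr2:26591402-26591423), stood at -2.49, -2.51 and -2.52 at 36 h and at -6.63, -6.62 and -6.62 at 72 h, 17.3-fold lower, and its partner strand miR-126-5p was 18.3-fold lower. Their summed level went from between -2.29 and -2.28 to between -6.42 and -6.40. Among the smooth muscle and mesenchymal markers, miR-143 fell 28.7-fold, from -7.11, -7.11 and -7.07 to -12.03, -11.93 and -11.84. miR-145, made from the same transcript, fell 24.3-fold, from -3.69, -3.71 and -3.79 to -8.36, -8.26 and -8.37. miR-199a-3p was 16.6-fold lower, and miR-214, transcribed near it, 8.66-fold lower relative to U6. Their summed level ran from -2.76 to -2.70 at 36 h and from -6.82 to -6.75 at 72 h.

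Of the 7 epithelial markers only miR-203 was tested (10.7-fold lower, with all 5 references). miR-200c and miR-205 were detected at 36 h alone, and the other 4 on no array. Of the 5 neural markers, miR-128a differed by -0.33 and was not called (with snoRNA202 and the miRNA mean it was called higher), miR-9 and miR-137 were detected at 36 h alone, and miR-129-3p at 72 h alone. The liver miRNA miR-122 was detected on no array of either time. What part other cells had in the decreases was not tested. The identity of the stem cells themselves could not be read from defining markers, since those are messenger RNAs; miR-206 was detected on all 6 arrays of its card.

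**Figure D5:**
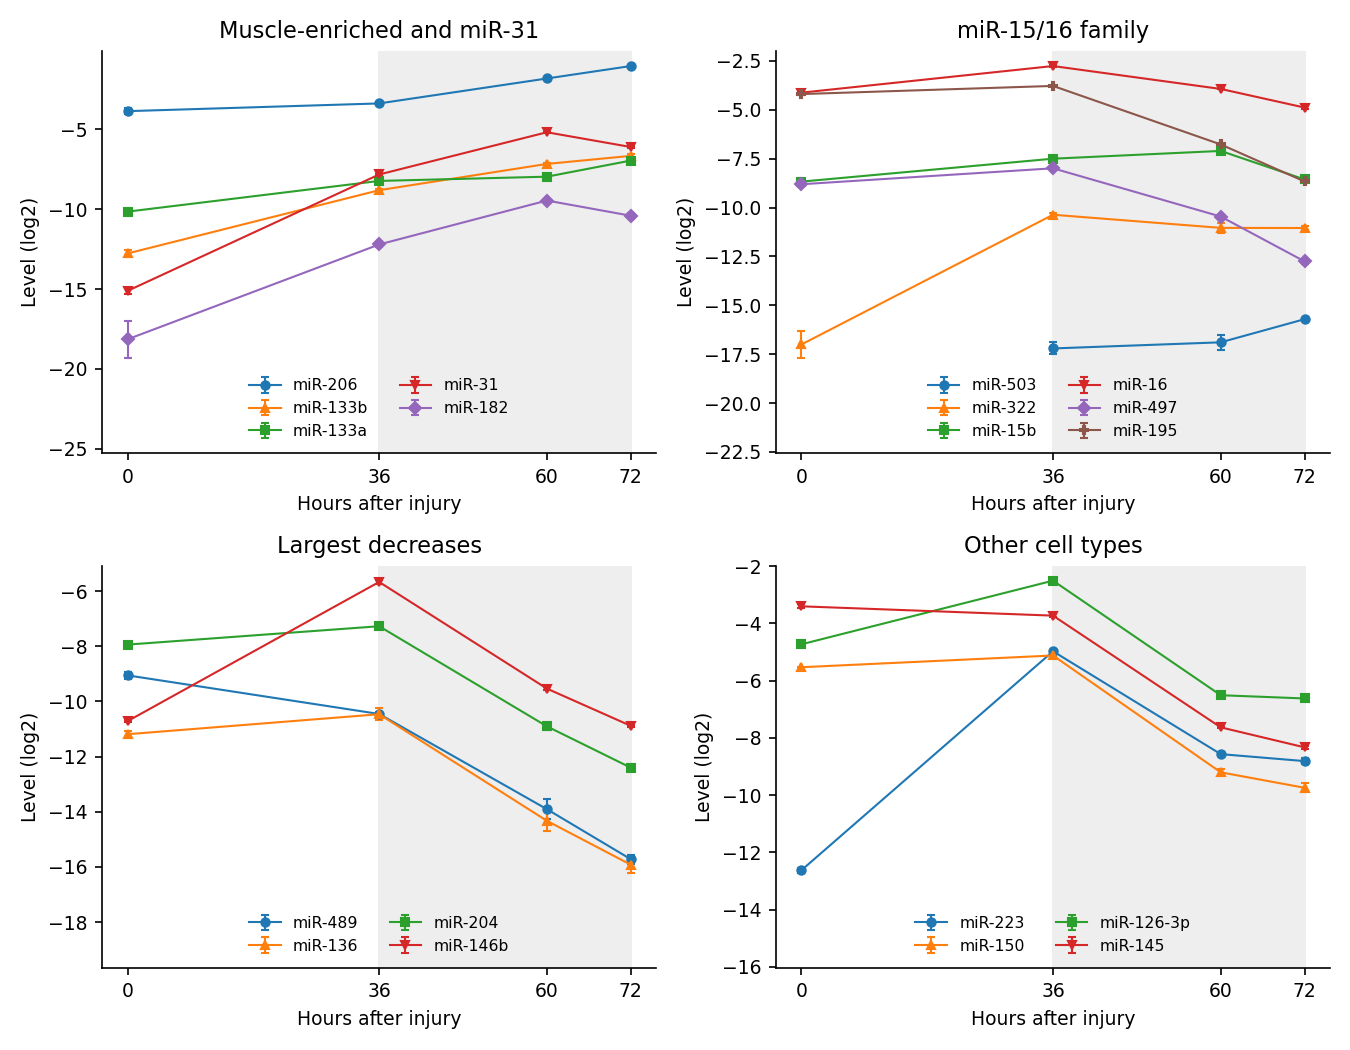
Mean level (U6 Ct minus assay Ct, log2) at 0, 36, 60 and 72 h after injury, with SD bars (n = 3 arrays, or 2 where 1 had no signal; times with fewer are not drawn), for 4 sets of miRNAs; the interval between 36 h and 72 h is shaded. miR-206 climbs through the shaded interval while miR-31 and miR-182 peak at 60 h, and miR-489, miR-136, miR-195 and the markers of other cell types descend.

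The 60 h arrays, which the comparison did not use as a group, fell between the 2 times for most called assays. The mean at 60 h lay between the means at 36 h and 72 h for 165 of the 194 called assays with a level there, 8 of 11 higher and 157 of 183 lower. miR-206 went through -1.81 and miR-133b through -7.16 at 60 h. The 3 exceptions among the increases were miR-31 (-5.18), miR-31* (-7.77) and miR-182 (-9.46), whose 60 h means were above those at 72 h. Among the decreases, miR-489 stood at -13.91 at 60 h, miR-146b at -9.53 and miR-195 at -6.77, each partway down. By contrast miR-126-3p was at -6.51 at 60 h and -6.62 at 72 h, and miR-143 at -11.76 and -11.94. Against the quiescent cells, 142 of the 177 lower assays with a level at 0 h had a 72 h mean below the 0 h mean. miR-489 did so (-9.06 at 0 h), and miR-223 (-12.62 at 0 h) and miR-21 (-13.47 at 0 h) were among those still above it. The 36 h arrays enter every one of these statements, so they are not independent of the comparison itself.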

How the data were processed

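Per the labels' protocols, total RNA was isolated with Trizol and run on TaqMan rodent miRNA A and B cards on an ABI 7900HT instrument. The deposited file of each array holds 1 Ct per spot; how the threshold was set is not given in the sources used here. Card type was taken from the assays each file lists, since the labels leave it out. Levels were the mean U6 Ct of the array minus the assay Ct, each card on its own U6, with spots of an assay averaged. An assay was tested with at least 2 detected replicates (Ct below 35) in each group, using the moderated linear models of limma 3.58.1 (R 4.3.3). Each card had 1 fit, of its 12 arrays at 0, 36, 60 and 72 h, and p-values of both cards were adjusted together by Benjamini-Hochberg. Assays detected at 1 time alone were counted without a test, and a bound sets the other time to Ct 35. In a test on simulated data with 4-fold changes in 140 of 270 assays, 98.6% were recovered with 0 false calls. The simulated levels held no shift of the reference RNA, so this cannot show how many calls are due to the choice of reference. Errors given as ± are standard errors from the fit of each card's 12 arrays, so they take in the spread at 0 h and 60 h.

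The members and lists were chosen with earlier results of these data known. Named are the 10 largest increases and decreases among non-overlapping calls detected on all 6 arrays, the top 5 in each direction of those detected at 1 time alone, up to 4 assays per list with the largest difference, and 12 miRNAs of interest in muscle or as markers. miR-141*, miR-322, miR-15b, miR-335-5p, miR-107, miR-224, miR-653, miR-155, miR-142-5p, miR-592 and miR-199a-5p were named after their values were seen. So were let-7d and let-7e, which are not counted among the named assays below. Alternatives were 4 other references, other detection limits, undetected values at Ct 35, the median of spots, a fit of these 2 times only, a replicate block, and leaving out each replicate. The authors' 2 series-wide tables were not used, because their headers give the last time as 3.5 days where the labels say 72 h.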

Additional observations from a re-analysis of the deposited data

How the results depend on the processing

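The choice of reference RNA moved the results most. Against 11 higher and 187 lower with U6 (median -1.82), snoRNA202 gave 70 and 70 (median 0.077), the mean of the always detected miRNAs 76 and 68 (median 0.039), Y1 20 and 142 (median -1.12) and snoRNA135 13 and 161 (median -1.44). A detection limit of Ct 32 gave a median of -1.73, and undetected values at Ct 35 gave 20 higher and 228 lower, with a median of -2.0. The replicate numbers did not pair the arrays (correlations of same-numbered arrays from -0.06 to 0.06), and with the replicate number as a block 11 were higher and 188 lower. Leaving out 1 replicate at a time gave 11 to 12 higher, 176 to 186 lower and medians from -1.93 to -1.78. It left 4 to 7 assays detected at 72 h alone and 29 to 34 at 36 h alone (29, 29 and 30 without a 36 h replicate), where by construction no detected replicate of the other time was allowed.

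Of 1397 comparisons of the 88 tested named assays with an alternative, 1279 kept their direction and their side of the threshold, 48 lost a call, 7 gained one and 63 reversed, all 63 with another reference. Reversed with snoRNA202 were miR-1 (1.76), miR-106b (1.14), miR-125b-3p (0.51), miR-128a (1.84), miR-130a (0.12), miR-130b (1.86), miR-148b (1.67), miR-155 (0.38), miR-15b (1.11), miR-16 (0.046), miR-19b (0.91), miR-21 (0.047), miR-221 (0.79), miR-222 (0.64), miR-25 (0.94), miR-301a (1.41), miR-301b (1.71), miR-322 (1.49), miR-34b-3p (0.79), miR-34c (1.44), miR-449a (1.75), miR-92a (1.11) and rno-miR-224 (0.40). With the miRNA mean the same assays reversed, at 1.91, 1.29, 0.66, 2.0, 0.28, 2.02, 1.83, 0.53, 1.26, 0.20, 1.06, 0.20, 0.95, 0.79, 1.09, 1.56, 1.86, 1.64, 0.95, 1.59, 1.90, 1.26 and 0.55 in that order, and so did miR-24 (0.15) and miR-30c (0.021). With Y1 they were miR-1 (0.56), miR-128a (0.65), miR-130b (0.67), miR-148b (0.48), miR-301a (0.22), miR-301b (0.52), miR-322 (0.30), miR-34c (0.25) and miR-449a (0.56). With snoRNA135 they were miR-1 (0.24), miR-128a (0.32), miR-130b (0.34), miR-148b (0.15), miR-301b (0.19) and miR-449a (0.23). The cause was not tested. Leaving out the third 72 h replicate ended the calls of miR-92a and miR-106b. With a limit of Ct 32, 81 of the 88 tested named assays still had a test. Those without one included miR-592, miR-503, miR-181c, miR-543 and miR-29b. The increase of miR-503 could thus not be checked at that limit, since its Ct at 36 h was 31.7, 32.4 and 32.2. Neither miR-592 nor miR-34a had a test without either of its detected 72 h replicates. Signals near Ct 35 limit what can be read of weak assays, and the 3 technical replicates do not cover variation between mice.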

Other observations

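Lesser strands, marked with an asterisk, were mostly on card B and were kept out of the lists. Of 129 such assays 55 were tested, 2 were called higher (miR-31* and miR-141*) and 32 lower relative to U6, with a median of -1.20. Among all 89 tested assays of card B, 46 were called lower, with a median of -1.09. Over the tested assays of both cards 69.3% were lower, with a median of -1.82. For 15 more asterisk assays the signal was confined to 36 h, and for 0 to 72 h. Where both strands of a hairpin were tested under 1 species name, in 39 pairs, both were lower relative to U6 in 19, both higher in 1 (miR-31), neither called in 11 and only 1 strand called in 8, and in 0 pairs were the calls opposite. The 2 strands mostly lay on different cards, whose U6 moved by 0.23 and 0.89 cycles, so their sizes are not compared here.

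7 miRNAs were tested with both a mouse and a rat assay, and 5 of these pairs had the same call. The widest gap was that of miR-224, at -4.56 on the mouse and -1.77 on the rat assay of the same card. Whether the 2 assays read the same strand was not tested.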
